A study of Mus musculus with 3 samples.

Results

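Complement is the set of plasma and cell surface proteins that tags microbes, immune complexes and dying cells for removal. C1q binds its targets and starts the classical pathway through C4 and C2, the alternative pathway amplifies C3 cleavage with factor B and properdin, and the released peptides C3a and C5a act through their own receptors. The liver makes most circulating complement proteins. C1q is an exception, as macrophages are its main source, and they also carry the C3a and C5a receptors.

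The genes described are C1qa, C1qb, C1qc, C3, C3ar1, C5ar1, Cfp, Cfb and C4b, taken as every non-control probe that the array design assigns to one of these names. This gave 10 probes for 9 genes, out of 55681 non-control probes under 36088 names in all. The RNA came from sorted yolk sac cells of mouse embryos that carried both CD45, a surface protein of blood cells, and VE-cadherin, a junction protein of endothelium. There were 2 Tie-2-Etv2 arrays, from embryos in which an Etv2 transgene was turned on by Tie-2 Cre, and 1 Control array. Etv2 is an ETS transcription factor of early vessel and blood development, and Cre driven by Tie-2 acts in endothelial cells and in many blood cells that descend from them. The strain was mixed (B6/CBA and others) in both groups, the stage (E10.5) is given for the Control sample only, and the alleles of the Control embryos are not stated. The labels number the Tie-2-Etv2 samples as replicates without naming a litter or pool for either, so the spread behind each p-value may be technical. The arrays lay on 1 slide and were read in 1 scan.

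Between 24218 and 27014 probes per array were well above background, the scanner software's call of a signal clearly over the local noise. As checks of the labels and the gate, mean differences from the Control array were taken. Etv2 was 14.1-fold higher, the VE-cadherin gene Cdh5 11.6-fold higher and the CD45 gene Ptprc at -0.46 log2 units (adjusted p = 0.236, 0.328 and 0.775 by limma). Cdh5 had 1568 and 751 units on Tie-2-Etv2 replicates 1 and 2, against 123 on the Control array. All samples are labelled as VE-cadherin positive, yet in Cdh5 RNA the groups were not alike, and the reason was not tested. Tie-2-Etv2 replicate 1 gave less signal than the other arrays: 75% of the probes detected on all 3 arrays were under 1199 intensity units there, against 2092 for Tie-2-Etv2 replicate 2 and 2073 for the Control array. Differences below are therefore between log2 signals from which each array's own 75th percentile was subtracted, whereas intensities are given as deposited. Replicate 1 also stood apart in scaled signal: over the 22764 probes detected on all 3 arrays, levels correlated at r = 0.961 between replicate 1 and the Control array, and at r = 0.982 both between replicate 2 and the Control array and between the replicates. Values are therefore given for each replicate alone as well as for their mean.

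Of the 9 complement genes, 7 were at least 2-fold lower than in the Control array on both Tie-2-Etv2 arrays: C1qa, C1qb, C1qc, C3ar1, C5ar1, Cfp and Cfb. C3 and C4b were not. All 10 probes were well above background on all 3 arrays, so none entered the test through 1 group alone. For comparison, 6.64% of the 19583 tested genes were 2-fold lower on both arrays and 3.92% were 2-fold higher, and among genes detected on all 3 arrays the shares were 3.44% and 2.91%. The median log2 difference of the 9 genes was -2.98, against 0.07 over all tested genes. No gene of the array passed an adjusted p of 0.05 (0% called) in limma's test. Unadjusted p-values were under 0.05 for 6 of the 9 genes, all lower, and for 10.8% of all tested genes, with 6.36% lower and 4.41% higher. The fit had 1 residual degree of freedom, from the Tie-2-Etv2 pair, and assumed that the single Control array varies like that pair. An exact permutation test of 1 against 2 arrays cannot give a p below 0.333. With normexp background correction 7 of the 9 genes passed the adjusted test, and with no filter on dim probes 5 did. Over all genes, 614 passed with normexp and 440 with no filter. In sorted bulk cells, fewer cells of a type and less RNA per cell cannot be told apart.

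**Figure D1:**
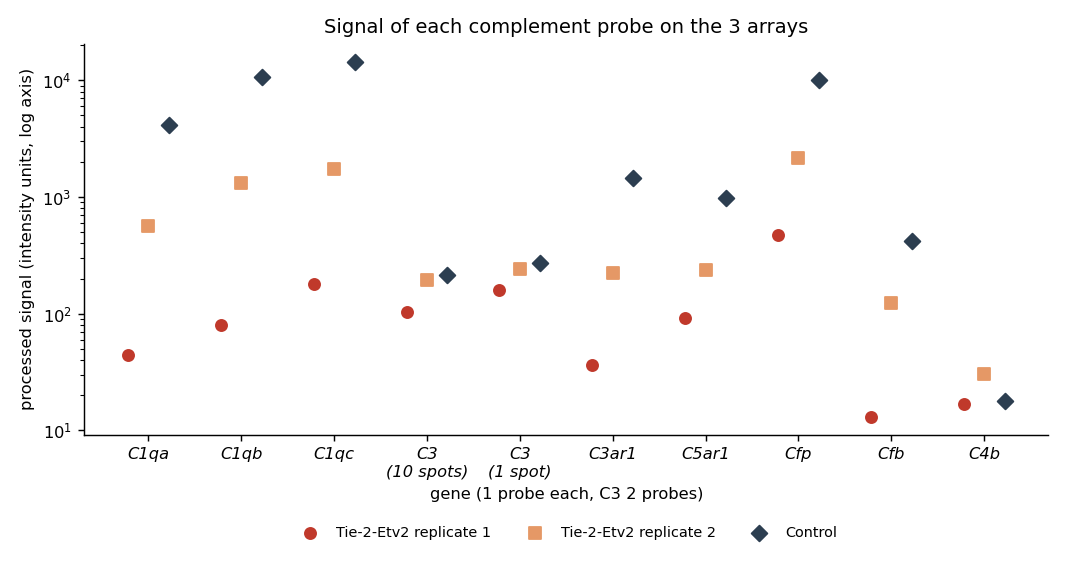
Processed signal in intensity units (log axis) of each complement probe, with 1 point per array: Tie-2-Etv2 replicate 1, Tie-2-Etv2 replicate 2 and Control. For C1qa, C1qb, C1qc, C3ar1, C5ar1, Cfp and Cfb both Tie-2-Etv2 points lie below the Control point. Signals are not scaled between arrays, the replicate 1 array was dimmer as a whole, and points can be compared within a probe only.

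The C1q chains showed the largest differences of the 9 genes. C1q is built from A, B and C chains, each with a collagen-like stalk and a globular head, encoded by C1qa, C1qb and C1qc. The C1qa probe had 43.9 and 564 intensity units on Tie-2-Etv2 replicates 1 and 2, against 4158 on the Control array. The C1qb probe had 80.0 and 1328 units on the Tie-2-Etv2 arrays, against 10712 on the Control array. The C1qc probe had 178 and 1729.7 units on the Tie-2-Etv2 arrays, against 14440.5 on the Control array. In each chain the Control array was highest, replicate 2 intermediate and replicate 1 lowest, before and after scaling. Of all tested genes, 30.9% had both Tie-2-Etv2 arrays below the Control array in scaled signal, in either order of the replicates.

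After scaling, C1qa was 54.7-fold lower on replicate 1 and 7.44-fold lower on replicate 2, a mean log2 difference of -4.33 ± 1.30 (SE, adjusted p = 0.392). The C1qa signal on replicate 1 was 4.17 times the lowest signal called well above background on that array. C1qb was 77.4-fold and 8.14-fold lower, at -4.65 ± 1.46 (adjusted p = 0.410). C1qc was 46.9-fold and 8.43-fold lower, at -4.31 ± 1.13 (adjusted p = 0.347). With normexp the differences were -3.66 for C1qa, -4.25 for C1qb and -4.10 for C1qc. The SEs are wide because the 2 Tie-2-Etv2 arrays differ from each other: the scaled C1q signals of replicate 2 were 7.35-fold (C1qa), 9.51-fold (C1qb) and 5.56-fold (C1qc) those of replicate 1. Within an array the chains lay close together, spanning 0.72 log2 units on replicate 1 and 0.18 on replicate 2. Of the 19583 tested genes, 0.434% had a mean difference as low as that of C1qa, 0.271% as low as C1qb and 0.449% as low as C1qc.

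The C1q genes lie beside each other, with no other gene listed between them in the RefSeq table. Their probes, all on the minus strand, fall within 15891 bases of chromosome 4 in build mm9: C1qb at chr4:136436578-136436637, C1qc at chr4:136445766-136445825 and C1qa at chr4:136452409-136452468. The C1qa probe starts at base 444 and the C1qb probe at base 484 of its transcript. Their 60 bases are printed 5′ to 3′ because these are the measured stretches, and no pair of C1q probes shares a run longer than 6 bases:
C1qa probe: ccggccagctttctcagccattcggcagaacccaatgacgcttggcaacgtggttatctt
C1qb probe: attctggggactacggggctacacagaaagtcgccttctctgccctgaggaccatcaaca

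The array carries 10 spots of the C1qc probe, which gives the error of a single measurement. On replicate 1 the 9 usable spots ran from 166 to 193 units (median 178), on replicate 2 the 10 spots from 1663 to 1802 units (median 1722), and on the Control array from 13967 to 15059 units (median 14394). The coefficient of variation between spots was 5.12%, 2.82% and 2.64% on these arrays. The gaps between arrays were thus far wider than the spread between spots, including the gap between the 2 Tie-2-Etv2 arrays. Spots of 1 array share 1 RNA sample, so this spread says nothing about variation between embryos.

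**Figure D2:**
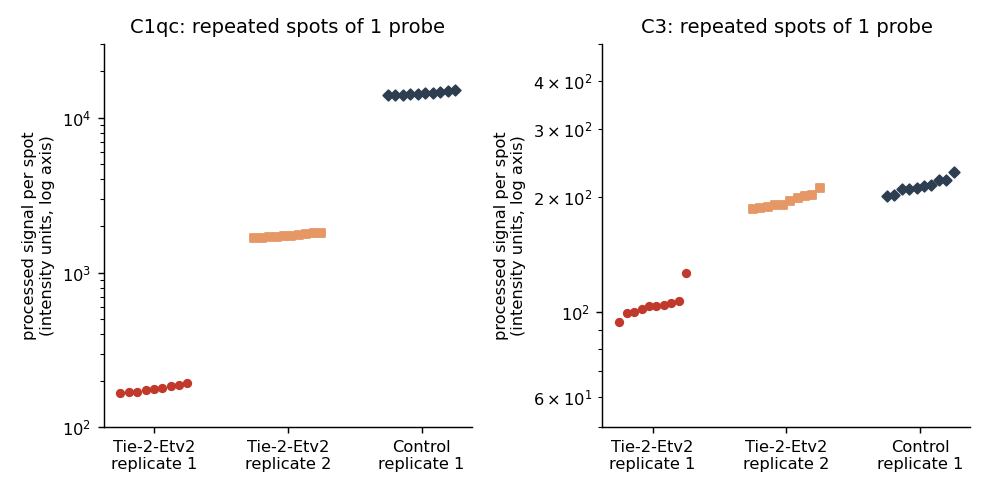
Processed signal per spot (intensity units, log axis, not scaled between arrays) for the 10 repeated spots of the C1qc probe (left) and of 1 C3 probe (right), by array. The C1qc spots form 3 separate bands, at medians of 178, 1722 and 14394 units, whereas the C3 spots of replicate 2 and the Control array overlap and those of the dimmer replicate 1 array lie lower.

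RefSeq promoter sequences (300 bases from upstream of the start site to 50 bases past it, build GRCm38.p6) were found for 6 of the 9 genes: C1qb, C1qc, C3, C3ar1, C5ar1 and Cfp. They were searched on both strands for GGAA, the core shared by ETS factors, and for 2 longer forms that contain it, GAGGAAGT and CCGGAAGT. GGAA was found in 96% of the 32851 promoters of the table, at a median of 3 matches, GAGGAAGT in 3.2% and CCGGAAGT in 3.89%. C1qb held 6 GGAA matches, C1qc 6, C3 3, C3ar1 7, C5ar1 8 and Cfp 3. GAGGAAGT was found once, on the reverse strand of the C1qc promoter, starting at -195 from the start site, and CCGGAAGT in none of the 6 promoters. The promoters of the neighbouring C1qb and C1qc are shown with that of C3, whose signal was close to the Control array's, and capitals mark GGAA on either strand (TTCC on the reverse):
C1qb, chr4:136886151-136886450, minus strand: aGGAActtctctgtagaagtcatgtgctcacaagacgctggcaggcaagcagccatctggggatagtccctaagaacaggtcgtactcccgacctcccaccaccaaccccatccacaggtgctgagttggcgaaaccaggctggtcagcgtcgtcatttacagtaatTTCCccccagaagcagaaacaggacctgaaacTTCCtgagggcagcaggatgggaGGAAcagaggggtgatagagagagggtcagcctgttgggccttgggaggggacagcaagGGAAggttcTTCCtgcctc
C1qc, chr4:136892865-136893164, minus strand: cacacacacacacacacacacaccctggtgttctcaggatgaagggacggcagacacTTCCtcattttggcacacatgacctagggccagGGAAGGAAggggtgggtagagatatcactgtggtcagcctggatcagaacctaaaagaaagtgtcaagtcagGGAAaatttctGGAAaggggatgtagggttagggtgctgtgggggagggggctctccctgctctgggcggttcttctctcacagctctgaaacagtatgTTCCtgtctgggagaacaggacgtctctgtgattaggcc
C3, chr17:57228087-57228386, minus strand: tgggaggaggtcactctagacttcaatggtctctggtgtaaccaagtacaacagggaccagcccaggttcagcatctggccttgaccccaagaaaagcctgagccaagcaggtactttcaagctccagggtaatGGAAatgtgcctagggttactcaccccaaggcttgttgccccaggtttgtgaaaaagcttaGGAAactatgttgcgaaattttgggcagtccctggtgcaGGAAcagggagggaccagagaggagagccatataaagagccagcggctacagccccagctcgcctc
These matches describe the letters only, and binding was not measured.

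Both anaphylatoxin receptor genes were lower. C3ar1 encodes the G protein-coupled receptor of C3a, found on myeloid cells. Its probe (chr6:122798222-122798281, mm9) had 36.0 and 225 intensity units on the Tie-2-Etv2 arrays, against 1449 on the Control array. After scaling it was 23.3-fold lower on replicate 1 and 6.49-fold lower on replicate 2, at a log2 difference of -3.62 ± 0.87 (SE, adjusted p = 0.318). With normexp the C3ar1 difference was -2.78, past the adjusted threshold. The C3ar1 signal on replicate 1 was 3.42 times the lowest signal called well above background on that array. C5ar1 encodes the C5a receptor, which draws neutrophils and macrophages to sites of complement activation. Its probe (chr7:16832243-16832302) had 92.1 and 238 units on the Tie-2-Etv2 arrays, against 982 on the Control array. The scaled values were 6.16-fold and 4.16-fold lower, at -2.34 ± 0.40 (adjusted p = 0.247). C5ar1 showed the smallest difference between the Tie-2-Etv2 arrays among the 7 lower genes, at 1.48-fold, and the smallest adjusted p of the 9.

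The alternative pathway genes Cfp and Cfb were both lower. Cfp encodes properdin, which stabilises the C3 convertase and is made by myeloid cells. Its probe (chrX:20502742-20502801) had 475 and 2162 units on the Tie-2-Etv2 arrays, against 10095 on the Control array. It was 12.3-fold lower on replicate 1 and 4.71-fold lower on replicate 2, at -2.93 ± 0.68 (SE, adjusted p = 0.311). Cfb encodes factor B, the protease subunit of that convertase. Its probe, whose 60 bases span chr17:34993502-34993858, had 13.1 and 125 units on the Tie-2-Etv2 arrays, against 418 on the Control array. It was 18.5-fold and 3.39-fold lower, at -2.98 ± 1.12 (adjusted p = 0.495). The replicate 1 value of Cfb was 1.24 times the lowest signal called well above background on that array, so its fold there is the least certain of the 7. With normexp the mean difference was -1.63 for Cfb and -2.84 for Cfp.

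C3 differed little between the arrays. C3 encodes the central component, whose cleavage is common to all complement pathways. The probe that represents it (chr17:57343678-57343737) had 159.8 and 241 units on the Tie-2-Etv2 arrays, against 273 on the Control array. The scaled log2 differences were 0.02 and -0.19, with a mean of -0.09 ± 0.33 (SE, adjusted p = 0.975). The other C3 probe (chr17:57343416-57343475), with 10 spots, averaged 104 and 194 units on the Tie-2-Etv2 arrays, against 213 on the Control array, and gave -0.19 ± 0.32 (adjusted p = 0.938). Both mean differences were smaller than their SE, which does not show that C3 was equal in the groups.

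C4b, which encodes the C4 cleaved by C1s in the classical pathway, was barely detected. Its probe (chr17:34865328-34865387) had 16.8 and 30.5 units on the Tie-2-Etv2 arrays, against 18.0 on the Control array, or 1.60, 2.72 and 1.30 times the lowest detected signal. The log2 difference was 0.72 ± 0.32 (SE, adjusted p = 0.574), the only one of the 9 above 0 on both arrays. The design also assigns a C4a transcript to this probe, so the paralogs cannot be told apart.

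**Figure D3:**
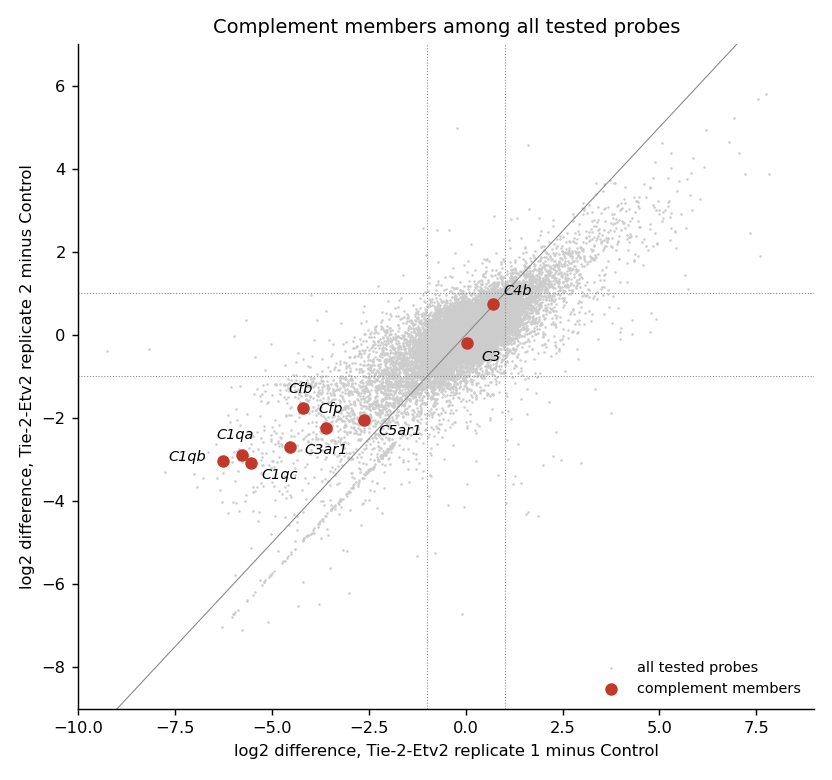
Log2 difference of Tie-2-Etv2 replicate 1 (x axis) and replicate 2 (y axis) from the Control array, for all tested probes (grey) and for the probe of each complement gene (red). Dotted lines mark 2-fold and the solid line equal differences. The C1q chains lie near -5.9 and -3.0, C3 near 0, and the 7 lower genes lie above the line of equal differences, that is, further from the Control array on replicate 1.

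Each of the 7 lower genes was further from the Control array on replicate 1 than on replicate 2. Of all tested genes, whatever their direction, 45.0% had a lower scaled value on replicate 1 than on replicate 2, against 8 of the 9 complement genes. These were the 7 and C4b, which lay above the Control array on both, at 0.70 and 0.75. Over all genes, too, replicate 1 lay further out. There 2204 genes were at least 2-fold lower and 1775 higher, against 1634 and 896 on replicate 2. On replicate 2, the array nearer to the Control array, the 7 lower genes ran from 3.39-fold lower for Cfb to 8.43-fold lower for C1qc.

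The wider complement system was covered by a list of 49 genes including the 9, of which 31 were tested. By role, the classical pathway had 5 of 6 tested genes at least 2-fold lower and the lectin pathway 3 of 6. C3 and the alternative pathway had 2 of 3, the receptors 2 of 8 and the inhibitors and regulators 2 of 7. Among these, C1ra and Colec10 were detected on the Control array alone and are not shown to be 2-fold lower. Without the 9 genes, 2 of 2 tested classical pathway genes and 0 of 6 receptors were lower, and no alternative pathway gene was tested. Higher by 2-fold were 2 receptor and 2 regulator genes. Of the 7 terminal pathway genes only C8g was tested. Its brightest probe had log2 differences of 0.89 and 0.17 on replicates 1 and 2, and its other probe -0.20 and 0.07. The other 6, among them Hc, which encodes C5, were not well above background. Outside the 9 genes, 7 of 22 tested were 2-fold lower and 4 higher, at a median of -0.01, against 6.64% lower and 3.92% higher among all tested genes. Only 1 of the 7, Mbl2, was detected on all 3 arrays. With normexp 3 of these other genes were 2-fold lower and 2 higher, and of all tested genes 491 were lower and 312 higher. None of the 31 passed limma's adjusted test.

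**Figure D4:**
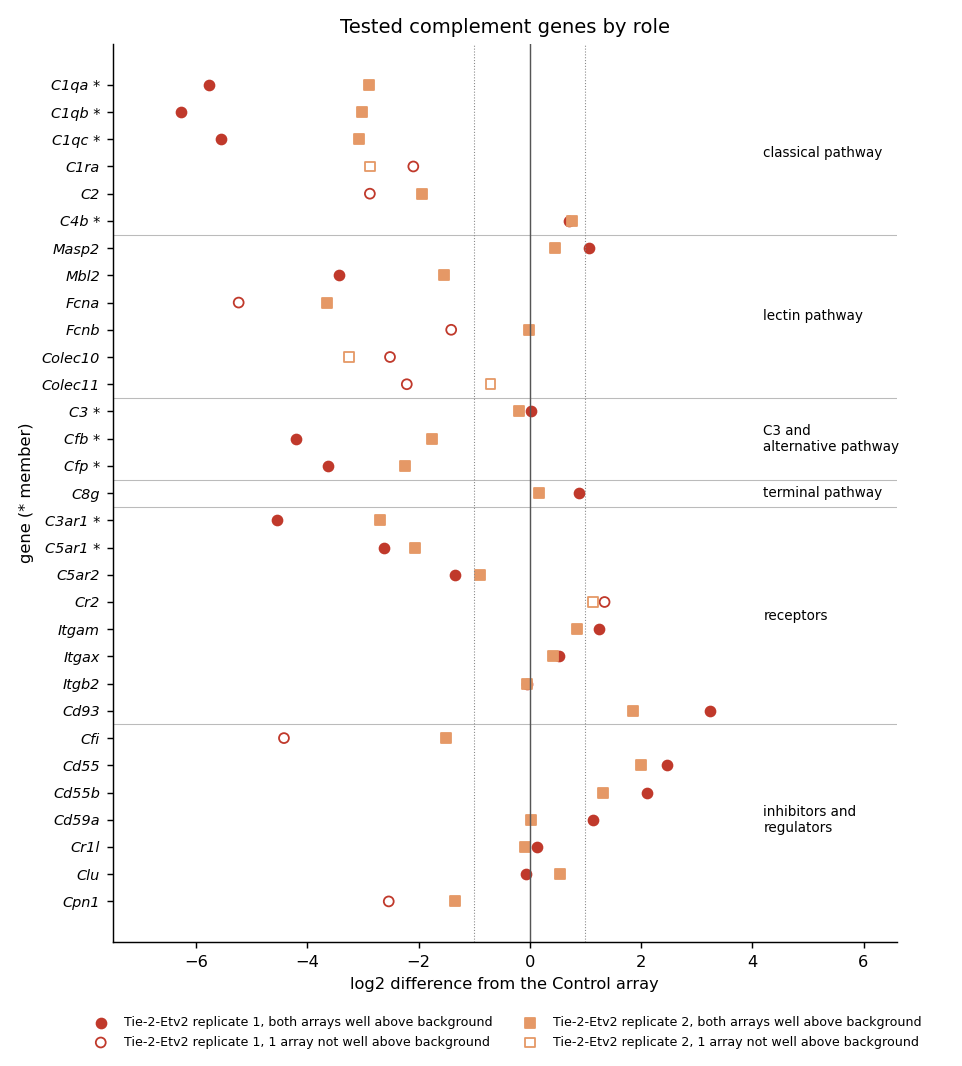
Log2 differences from the Control array of the 31 tested complement genes, grouped by role, for Tie-2-Etv2 replicate 1 (circles) and replicate 2 (squares). Open symbols mark differences in which an array was not well above background, and stars mark the 9 genes. The C1q chains and Fcna lie furthest left, and Cd93, Cd55 and Cd55b furthest right.

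Fcna, which encodes ficolin-A of the lectin pathway, a macrophage product in mouse, had 46.8 units on replicate 2, against 577 on the Control array, 12.5-fold lower after scaling, and was not well above background on replicate 1. Mbl2, a mannose-binding lectin gene best known from liver, was 10.8-fold lower on replicate 1 and 2.93-fold on replicate 2. Cfi, the protease that inactivates C3b, was 2.84-fold lower on replicate 2. C2, the protease subunit of the classical convertase, was 3.82-fold lower on replicate 2. Cpn1, a subunit of the carboxypeptidase that inactivates C3a and C5a, was 2.55-fold lower on replicate 2. Cfi, C2 and Cpn1 were not well above background on replicate 1. C1ra and Colec10 were detected on the Control array alone, and their bounds were at least 1.21-fold and 1.58-fold lower, which is short of 2-fold. These bounds set the Control signal against the dim arrays, each at its own value or at its lowest detected level, whichever was higher. With dim values set to the lowest detected level, 5 of the 22 genes were 2-fold lower, and 1014 of all tested genes.

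The higher genes encode membrane proteins. Cd93, once proposed as a C1q receptor and strongly expressed by endothelial cells and early progenitors, had 9783 and 6529 units on the Tie-2-Etv2 arrays, against 1796 on the Control array. It was 9.42-fold higher on replicate 1 and 3.60-fold higher on replicate 2, at a log2 difference of 2.54 ± 0.69 (SE, adjusted p = 0.352). Cd55 and Cd55b encode decay-accelerating factors, which shield cells by dismantling the C3 convertase. Cd55 had 272 and 343 units on the Tie-2-Etv2 arrays, against 84.5 on the Control array, and was 5.56-fold and 4.02-fold higher (adjusted p = 0.245). Cd55b was 4.33-fold and 2.49-fold higher (adjusted p = 0.359). The 2 genes are paralogs, and their probes may share signal. Cr2, which encodes the C3d receptor of B cells and follicular dendritic cells, was dim on the Tie-2-Etv2 arrays (20.9 and 31.5 units) and not well above background on the Control array, at least 2.36-fold higher.

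Marker lists of yolk sac cell types were set beside these genes. The gate on VE-cadherin and CD45 should leave out visceral endoderm, mesenchyme and mesothelium. Of the listed genes, 18 of 24 of visceral endoderm and 8 of 16 of mesenchyme and mesothelium were well above background on all 3 arrays. For comparison, 17205 of the 36088 genes on the array were. The mesenchyme and mesothelium count was thus close to the share over all genes and does not show that such cells passed the gate. Some of the detected genes, such as Col3a1 and Foxa1, were dim on the Tie-2-Etv2 arrays. Afp, a visceral endoderm gene, had 1505 and 18488 units on Tie-2-Etv2 replicates 1 and 2, against 43628 on the Control array. Which cells gave this signal was not tested. Most macrophage markers were lower: 21 of 29 tested were 2-fold lower on both arrays and 1, Lyz2, 2-fold higher. Their median was -3.70 on replicate 1 and -2.45 on replicate 2. Of the 21, Timd4 and Marco were detected on the Control array alone, at least 8.36-fold and 4.08-fold lower. Macrophage marker signals, scaled to each array's 75th percentile, summed to 34.7 and 45.3 on the Tie-2-Etv2 arrays, against 128 on the Control array. Bright genes weigh most in such a sum. On replicate 1 the brightest were Apoe and Tyrobp, at 18427 and 10754.5 units, and neither was 2-fold lower. The defining markers Adgre1, Csf1r and Cd68 stayed well above background on all 3 arrays, at 37.0-fold, 4.92-fold and 7.27-fold lower in the mean (adjusted p = 0.245, 0.393 and 0.343). Lyz2, the lysozyme gene shared by macrophages and granulocytes, was 2.12-fold higher (adjusted p = 0.392). Cd163 was not well above background on the Control array.

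Visceral endoderm makes plasma proteins for the embryo, and its markers also differed. Of 21 tested, 15 were 2-fold lower and 1, Sox17 (shared with the endothelial markers), 2-fold higher. Medians were -4.32 on replicate 1 and -1.17 on replicate 2, and summed signals 7.95 and 22.3, against 52.1 on the Control array. On replicate 1 the brightest gene in this sum was Trf, at 5965 units and a log2 difference of 0.007. For comparison, the C1q chains averaged -5.87 on replicate 1 and -3.00 on replicate 2, and C3ar1, C5ar1, Cfp and Cfb lay between -4.54 and -2.62 on replicate 1 and between -2.70 and -1.76 on replicate 2. The part of macrophage or visceral endoderm cells in these differences was not tested.

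Of the other lists, 2-fold lower were 8 of 13 erythroid genes and 6 of 12 genes of mesenchyme and mesothelium, with 0 higher in both, 13 of 23 endothelial genes were higher and 3 lower, 5 of 13 neutrophil and mast cell genes were higher and 0 lower, and 5 of 14 megakaryocyte genes were higher and 4 lower.

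**Figure D5:**
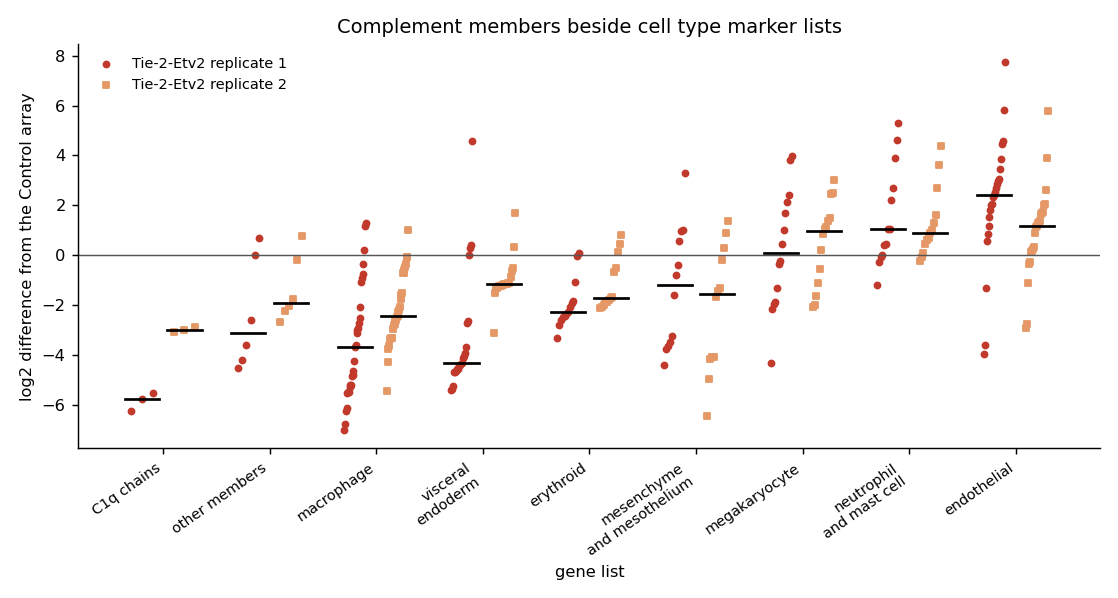
Log2 differences from the Control array for the C1q chains, the other 6 complement genes and 7 marker lists, with 1 point per tested gene on Tie-2-Etv2 replicate 1 (circles) and replicate 2 (squares) and the median as a black bar. The macrophage medians are -3.70 and -2.45, the visceral endoderm medians -4.32 and -1.17 and the endothelial medians 2.41 and 1.15.

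The genes whose pair of differences lay nearest to the mean of the C1q chains, among tested genes well above background on all 3 arrays, were Atf3, Rab7b, Lpl, Ahnak and Slc15a3. The measure was the Euclidean distance over the 2 differences, on the log2 scale, and thus rests on 3 arrays. Atf3, a stress-induced transcription factor gene, lay at 0.0178, with differences of -5.86 on replicate 1 and -3.01 on replicate 2. Rab7b, a small GTPase gene of late endosomes, lay at 0.182 and Lpl, the lipoprotein lipase gene, at 0.192. Ahnak, which encodes a large scaffold protein, lay at 0.211 and Slc15a3, a lysosomal peptide and histidine transporter gene, at 0.212.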

How the data were processed

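RNA was labelled with Cy3 and hybridised to 1-colour Agilent arrays. Per the submitters' processing notes and the file headers, the authors extracted spot intensity values with Agilent Feature Extraction (version 10.7 per the notes and 10.7.3.1 per the headers), with spatial and multiplicative detrending and surrogates for very dim spots, and no scaling between arrays. The deposited log2 table has no stated scale or centring. Set against the log2 processed signal, it gave the same differences between arrays to within 0.01 in 100% of 55668 probes once a constant per array was removed, and its rows were centred on their median (column medians 0.136, 0 and 0). It served as an alternative.

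Control spots and 168 to 174 outlier spots per array were left out, which left 13 probes without a value on some array. No spot of a gene probe was saturated. Log2 signals of a probe's spots were averaged, and the 75th percentile over the 22764 probes detected on all 3 arrays was subtracted. Tested were 26217 probes of 19583 genes, detected in the Control sample or in both Tie-2-Etv2 samples. A probe with several spots counted as detected if at least 50% of them were well above background. Of the 55668 probes, 29669 were named through RefSeq's gene table (GRCm38.p6) and the rest kept the names in the files. A gene was represented by its brightest probe, taking the mean of the group means. The test was limma's (version 3.58.1, lmFit with eBayes, run in R 4.3.3), two-sided, with Benjamini-Hochberg adjustment over all probes; total degrees of freedom were 3.93. The fit was run on simulated data in which all 3 arrays varied alike. That could not check the assumption that the single Control array varies like the Tie-2-Etv2 pair. Probe coordinates are mm9, per the file headers.

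The 9 genes, the lists and the tests were chosen with earlier results of these data known. A gene was left out of the complement list, its counts and figures, and is not reported here; other listed genes outside the naming rule are in the counts. Named were the 9 genes, other complement genes 2-fold apart on both arrays, or the 2 most different of a role without such a gene, the 5 genes nearest to C1q, and Etv2, Tek, Cdh5, Ptprc, Adgre1, Csf1r, Cd68 and Lyz2 as checks (Tek was 5.76-fold higher). Others were named after their values were seen. The number of arrays limits the precision. Alternatives were normexp background correction (offset 50), other scalings, other filters, dim values at a floor, the deposited table, all probes of a gene and leaving out each Tie-2-Etv2 array.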

Additional observations from a re-analysis of the deposited data

How the results depend on the processing

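The 7 lower genes stayed lower, and C4b higher, under all alternatives run. With normexp background correction C1qa (-3.66), C1qb (-4.25), C1qc (-4.10), C3ar1 (-2.78), C5ar1 (-1.93), Cfp (-2.84) and Cfb (-1.63) passed the adjusted test, 7 of the 9 genes. C3 turned to 0.014. With no filter on dim probes C1qa (-4.33), C1qb (-4.65), C1qc (-4.31), C3ar1 (-3.62) and Cfp (-2.93) passed, 5 of the 9. Under the other settings with a test 0 of the 9 passed. Adjusted p over the settings ran from 5.25e-17 to 0.551 for C1qb and from 0.00162 to 0.390 for C5ar1. Every fit used the same 3 arrays with 1 residual degree of freedom, so the smallest values are not evidence from replication. Genes passing in all numbered 0, against 614 with normexp and 440 with no filter; the cause was not tested. Genes 2-fold lower on both arrays numbered 491 with normexp and 593 with probes detected on all 3 arrays, against 1300, and 2-fold higher 312 and 502, and 1317 with no filter, against 768. Of the other complement genes, 3 were lower and 2 higher with normexp and 1 was lower with probes detected on all 3 arrays, against 7 lower and 4 higher.

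With 1 Tie-2-Etv2 array left out there is no test. The log2 difference then ran from -5.77 to -2.89 for C1qa, from -6.27 to -3.02 for C1qb, from -5.55 to -3.07 for C1qc, from -4.54 to -2.70 for C3ar1, from -2.62 to -2.06 for C5ar1, from -3.62 to -2.24 for Cfp, from -4.21 to -1.76 for Cfb, from 0.70 to 0.75 for C4b and from -0.19 to 0.019 for C3, which turned higher without replicate 2. Genes at least 2-fold lower numbered 1634 to 2204 and higher 896 to 1775 on a single array, and of the other complement genes 7 to 10 were lower and 4 to 7 higher, the larger counts being those of replicate 1. No paired analysis was possible because the Control group has 1 array, whose label carries no replicate number.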

Other observations

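Other complement receptor genes, which were named after their values were seen, gave the following values, which were not compared with those of C3ar1 and C5ar1 by a test. C5ar2, the second C5a receptor gene, had log2 differences of -1.35 and -0.90 on replicates 1 and 2 of Tie-2-Etv2 (adjusted p = 0.446). The complement receptor integrins, which bind C3 fragments on leukocytes, were detected on all 3 arrays. Their shared beta chain gene Itgb2 had differences of -0.05 and -0.06 (adjusted p = 0.985) and the alpha chain gene Itgax 0.53 and 0.42 (adjusted p = 0.763). The brightest probe of the alpha chain gene Itgam had 1.24 and 0.84 (adjusted p = 0.470), while its other probes had mean differences of -0.38 and 0.11, so its probes disagree in sign.

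Among regulators, Cr1l, which encodes the rodent inhibitor Crry, had differences of 0.14 and -0.09 (adjusted p = 0.993), and Clu, the clusterin gene, -0.08 and 0.55 (adjusted p = 0.941). Cd59a, whose product blocks the membrane attack complex, had 1.13 on replicate 1 and 0.03 on replicate 2 (adjusted p = 0.883).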
